A study of Homo sapiens with 6 samples.

Results

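Canonical histone genes are the genes whose mRNAs supply the core histones H2A, H2B, H3 and H4 and the linker histone H1 during DNA replication. They were taken here as the protein-coding genes on chromosomes 1, 6 and 12 whose symbol begins with H1-, H2AC, H2BC, H3C or H4C, which gave 70 of the 19974 protein-coding genes that RefSeq places on the autosomes and the X chromosome. The members were 7 H1, 17 H2A, 18 H2B, 13 H3 and 15 H4 genes. The study used CUT&Tag, in which an antibody guides a transposase to a chromatin protein or histone mark so that the DNA beside it is cut out and sequenced. The cells were MDA-MB-231, a human triple-negative breast cancer line. NONO, a nuclear DNA- and RNA-binding protein, was profiled in NC (control cells, genotype given as WT) and in NONO-KD cells (NONO knockdown). H3T11ph (histone H3 phosphorylated on threonine 11) and H3K27ac (histone H3 acetylated on lysine 27, a mark of active promoters and enhancers) were each profiled in NC and in PKM2-KD cells, in which the glycolytic enzyme PKM2 was knocked down. Each of the 6 groups held 1 library, so the groups were set side by side and no test between conditions was possible. Which knockdown reagent these libraries carried is not given in the sources used here, and the peak lists hold no expression values with which to check the knockdowns.

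Canonical histone genes differ from most genes in several ways. They are short, lack introns in most cases, and lie in clusters in which an H2A and an H2B gene often start back to back from a shared promoter region. Their transcription rises in S phase, and in the nucleus their clusters gather in histone locus bodies, where NPAT and related factors act on them, and their mRNAs end in a stem-loop in place of a poly(A) tail. Linker histone H1 sits at the entry and exit of DNA on the nucleosome, while the core histones form the nucleosome itself.

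The deposited data were lists of peaks, 1 list per library, with between 36583 peaks (H3T11ph PKM2-KD) and 572970 peaks (H3K27ac NC). The lists of a pair were not always made alike. In NONO NC, 94.57% of peaks shared a single width, the narrowest of that list, and in H3K27ac NC 79.31% did, against 1.193% to 2.052% in the other 4 lists. Only the H3T11ph pair had the same form in both conditions. Peak heights, counted in fragments stacked at the summit, were recovered from the deposited fold and p-value. The background level recovered the same way gave for H3K27ac an implied depth of 7.457 fragments per kb (NC) and 7.474 fragments per kb (PKM2-KD), so the heights of these libraries could be set side by side. For H3T11ph the depths were 3.353 and 3.416 fragments per kb, and for NONO 3.343 and 2.84. These depths are the background divided by the narrowest width of the list, taken as the fragment length. That width was 112 and 113 bp for H3K27ac, 111 and 91 bp for H3T11ph and 269 and 98 bp for NONO. The backgrounds themselves were 0.3722 and 0.3108 fragments for H3T11ph and 0.8993 and 0.2783 for NONO. Heights of the NONO lists are thus not on a common scale, and those of H3T11ph only roughly so.

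The members formed 8 clusters, a cluster being a run of members with no more than 250 kb between neighbours. The 4 large ones were a cluster of 11 members on chromosome 1 (chr1:149782689-149887965, H2BC18 to H2AC21), the 32 members of chr6:26017032-26285534 (H1-1 to H4C8), 5 members at chr6:27132316-27147562 (H2BC11 to H2AC12) and 16 members at chr6:27807479-27893891 (H2BC13 to H2BC17). The small ones were H2AC25 with H2BC26 on chromosome 1, H2AC1 with H2BC1 on chromosome 6, and the lone genes H4C16 and H1-7 on chromosome 12. Coordinates are those of hg38, the build named in the submitters' processing notes, and gene positions are from RefSeq on GRCh38.p14.

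Promoter sequences were available for 65 of the 70 members, from RefSeq on GRCh38.p14, each reaching from 250 bases before the gene start to 50 bases after it. Of these, 8 are printed because they hold the contrasts on which the results turn. H2BC11 shares its promoter region with H2AC11, and these were the only members with a peak in all 6 lists, whereas H2BC7, which starts back to back with H2AC7, had no peak in any. H1-2 was among the members with the most acetylation and H1-1 had no peak in any list. H4C15 had the most acetylated bases of all members and H4C4 had no peak in any list. The gene model of H4C15 is long and contains other members, and the H3K27ac peak at its start was 1199 bp wide in NC and 1376 bp in PKM2-KD. H2AC18 and H2AC19 are copies of each other. Capitals mark every match, on either strand, to 5 short motifs, namely the octamer ATTTGCAT bound by OCT1, the TATA box TATAAA, the CCAAT box CCAAT, the H1 box AAACACA and the H4 element GGTCCG.
H2BC11, chr6:27132746-27133045, minus strand: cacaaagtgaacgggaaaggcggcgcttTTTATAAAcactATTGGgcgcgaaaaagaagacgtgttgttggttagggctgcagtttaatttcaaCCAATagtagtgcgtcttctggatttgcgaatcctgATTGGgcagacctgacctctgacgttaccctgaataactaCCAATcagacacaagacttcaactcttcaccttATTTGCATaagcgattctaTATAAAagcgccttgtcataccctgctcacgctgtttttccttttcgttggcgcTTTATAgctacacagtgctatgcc
H2BC7, chr6:26199266-26199565, plus strand: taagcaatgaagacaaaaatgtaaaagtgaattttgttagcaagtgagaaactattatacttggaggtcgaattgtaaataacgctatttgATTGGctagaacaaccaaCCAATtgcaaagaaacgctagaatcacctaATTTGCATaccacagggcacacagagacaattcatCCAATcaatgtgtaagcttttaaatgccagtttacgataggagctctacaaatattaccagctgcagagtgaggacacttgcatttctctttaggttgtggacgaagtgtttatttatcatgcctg
H1-2, chr6:26056421-26056720, minus strand: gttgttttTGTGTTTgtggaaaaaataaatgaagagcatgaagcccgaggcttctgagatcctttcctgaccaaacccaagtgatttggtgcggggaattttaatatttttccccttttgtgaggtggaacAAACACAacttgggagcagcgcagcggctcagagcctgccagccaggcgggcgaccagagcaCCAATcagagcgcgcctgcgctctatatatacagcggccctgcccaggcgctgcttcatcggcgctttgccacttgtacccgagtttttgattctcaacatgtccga
H1-1, chr6:26017738-26018037, minus strand: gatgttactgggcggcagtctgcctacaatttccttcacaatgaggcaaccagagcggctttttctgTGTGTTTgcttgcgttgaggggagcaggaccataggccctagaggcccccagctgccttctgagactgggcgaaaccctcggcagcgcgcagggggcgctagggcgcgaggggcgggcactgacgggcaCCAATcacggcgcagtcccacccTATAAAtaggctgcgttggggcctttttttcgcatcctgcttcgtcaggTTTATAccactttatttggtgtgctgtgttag
H4C15, chr1:149861110-149861409, minus strand: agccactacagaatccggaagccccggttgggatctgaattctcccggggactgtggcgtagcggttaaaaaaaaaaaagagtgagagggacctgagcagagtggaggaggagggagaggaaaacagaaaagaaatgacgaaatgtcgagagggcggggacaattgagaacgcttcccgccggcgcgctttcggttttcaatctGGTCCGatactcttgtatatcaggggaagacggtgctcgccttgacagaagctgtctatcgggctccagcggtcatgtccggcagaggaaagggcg
H4C4, chr6:26189063-26189362, minus strand: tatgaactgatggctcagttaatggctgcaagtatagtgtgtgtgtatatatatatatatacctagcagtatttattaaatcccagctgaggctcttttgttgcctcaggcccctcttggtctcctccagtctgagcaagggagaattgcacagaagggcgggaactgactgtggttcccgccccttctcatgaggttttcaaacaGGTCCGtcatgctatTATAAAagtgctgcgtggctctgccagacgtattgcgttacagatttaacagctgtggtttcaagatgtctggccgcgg
H2AC18, chr1:149842701-149843000, minus strand: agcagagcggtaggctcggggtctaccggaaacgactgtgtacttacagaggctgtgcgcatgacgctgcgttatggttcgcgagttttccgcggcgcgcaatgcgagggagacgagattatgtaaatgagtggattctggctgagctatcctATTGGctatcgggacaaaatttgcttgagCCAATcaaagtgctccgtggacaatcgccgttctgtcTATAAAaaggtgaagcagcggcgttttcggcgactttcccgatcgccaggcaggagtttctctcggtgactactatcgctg
H2AC19, chr1:149850811-149851110, plus strand: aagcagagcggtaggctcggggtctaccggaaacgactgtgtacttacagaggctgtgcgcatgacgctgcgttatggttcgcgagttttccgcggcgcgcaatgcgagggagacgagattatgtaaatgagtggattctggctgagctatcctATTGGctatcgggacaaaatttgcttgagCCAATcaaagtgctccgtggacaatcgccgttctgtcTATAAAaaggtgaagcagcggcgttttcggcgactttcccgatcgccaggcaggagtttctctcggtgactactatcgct

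Most of the motifs divided by family. The octamer stood in 14 of 18 H2B promoters and 11 of 16 H2A promoters, in 1 of 11 H3 promoters and in none of the 7 H1 or 13 H4 promoters, against 1.72% of 15812 protein-coding promoters. The H1 box stood in all 7 H1 promoters (4.28% of all promoters), and the H4 element in 12 of 13 H4 promoters (14.5% of all promoters). The CCAAT box was in every H1, H2A, H2B and H3 promoter but in 3 of 13 H4 promoters, and in 36.4% of all promoters. The octamer stood in 16 of the 41 promoters with an H3K27ac peak in both lists (39%), in 5 of 13 with a peak in 1 list (38.5%) and in 5 of 11 with none (45.5%). TATAAA stood in 31 (75.6%), 7 (53.8%) and 4 (36.4%) of these classes and in 9.75% of all promoters. In the printed sequences, H2BC11 has the octamer starting 47 bases before the gene start and TATAAA starting 28 bases before it. H2BC7 has the octamer 111 bases before the start and no TATAAA in this window. H1-1, without a peak, has TATAAA starting 31 bases before the start, and H1-2 has none in the window, so the motif did not separate these H1 genes in the same direction. A match to letters is a description and not a measured binding site.

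Some promoters were copies of one another. The windows of H4C14 and H4C15 were identical over 300 of 300 bases, those of H2AC18 and H2AC19 over 299 of 299 at a shift of 1 base, and those of H3C14 and H3C15 over 296 of 296 at a shift of 4 bases. H4C11 and H4C12 matched at 295 of 300 bases, and H2AC13 and H2AC14 at 252 of 300. How the aligner placed fragments that match more than 1 place is not given in the sources used here, so the values at the 3 identical pairs, and perhaps at H4C11 and H4C12, may not be independent of their copies. H3T11ph PKM2-KD held a peak 352 bp wide at H4C14 with a height of 45 fragments and another 352 bp wide at H4C15 with a height of 36. At H4C11 and H4C12 the same list held peaks that were both 125 bp wide, with heights of 41 and 37 fragments.

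H3T11ph peaks were found near a larger share of histone genes than of genes at large, in both conditions. A gene was counted when a peak reached within 1 kb of either of its ends. In H3T11ph NC, 31 of 70 members had a peak (44.3%, 95% Wilson interval 33.2 to 55.9%), against 17.8% of all protein-coding genes. In H3T11ph PKM2-KD, 30 members did (42.9%, 31.9 to 54.5%), against 17.3% of all genes. Among the 1249 genes of at most 2 kb, a length class that holds 62 of the members, the shares were 13.5% and 11.4%. The intervals cover counting over genes only and treat genes as separate, although neighbouring members often shared a peak. The members with a peak were unevenly placed. On chromosome 1, in the cluster with the 3 identical pairs, 11 of 11 had one in NC and 9 in PKM2-KD. From H1-1 to H4C8 the counts were 10 and 11 of 32, from H2BC11 to H2AC12 5 and 4 of 5, and from H2BC13 to H2BC17 5 and 6 of 16.

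For the other targets the members stood closer to the background in at least 1 list. In NONO NC, 18 members had a peak (25.7%), against 28.4% of all genes, and in NONO-KD also 18 (25.7%), against 10.1% of all genes. In H3K27ac NC, 55 members had a peak (78.6%, 67.6 to 86.6%), against 77.9% of all genes and 57% of genes of at most 2 kb. In H3K27ac PKM2-KD, 47 did (67.1%, 55.5 to 77%), against 64.7% of all genes and 40.4% of those of at most 2 kb. For H3K27ac the lists as deposited thus placed the members near the background of all genes and above that of short genes. The gap in NC widened when narrow or weak peaks were left out. With peaks at least 2 times the narrowest width, 52.9% of members and 39.5% of all genes had H3K27ac in NC, with −log10 q of at least 5 the shares were 65.7% and 48.2%, and with lists of equal length 70% and 55.2%.

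**Figure D1:**
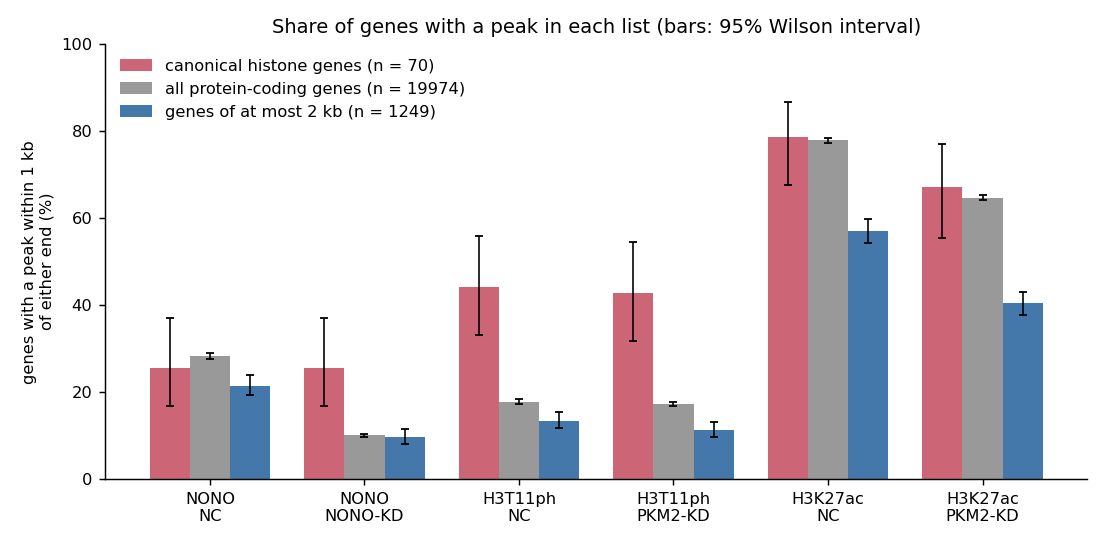
Share of genes with a peak within 1 kb of either end, in %, for each of the 6 lists, with 95% Wilson intervals for counting over genes. The histone genes (red) stand above all protein-coding genes (grey) in H3T11ph NC (44.3% against 17.8%), H3T11ph PKM2-KD (42.9% against 17.3%) and NONO-KD (25.7% against 10.1%), and near them in the other 3 lists as deposited.

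H3K27ac was uneven along the histone gene clusters. In NC cells, H3K27ac peaks covered 7.386% of the cluster on chromosome 1, 8.906% of the cluster from H1-1 to H4C8, 23.11% of that from H2BC11 to H2AC12 and 12.55% of that from H2BC13 to H2BC17, against 3.068% of all chromosomes. In PKM2-KD cells the values were 12.56%, 9.406%, 30.43% and 12.57%, against 2.137% of all chromosomes. All 4 large clusters thus lay above the average of their list, and the chromosome 1 cluster had the widest relative gap between conditions of the 4.

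Within the largest cluster, a stretch of 16 members from H2BC6 to H2BC10 (chr6:26183761-26273412) carried less acetylation than the members on either side. This stretch was marked out after its values were seen. H3K27ac peaks covered 2.484% of its 91.65 kb in NC, where 19 of its 20 peaks had the narrowest width of the list, and 0.9438% in PKM2-KD. All chromosomes were covered over 3.068% and 2.137%. Peaks numbered 21.82 per 100 kb of the stretch in NC and 6.547 in PKM2-KD, against 19.32 and 7.179 over all chromosomes. The 15 members before the stretch, H1-1 to H2BC5, were covered over 12.01% in NC and 13.41% in PKM2-KD. H4C8, the next gene after it, was covered over 76.59% and 81.61% of the gene with 1 kb on either side. In NC the tallest H3K27ac peak of any member in the stretch was 19 fragments high (H4C6), and in PKM2-KD 15 (H4C5), while H4C8 reached 41 and 79 fragments.

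**Figure D2:**
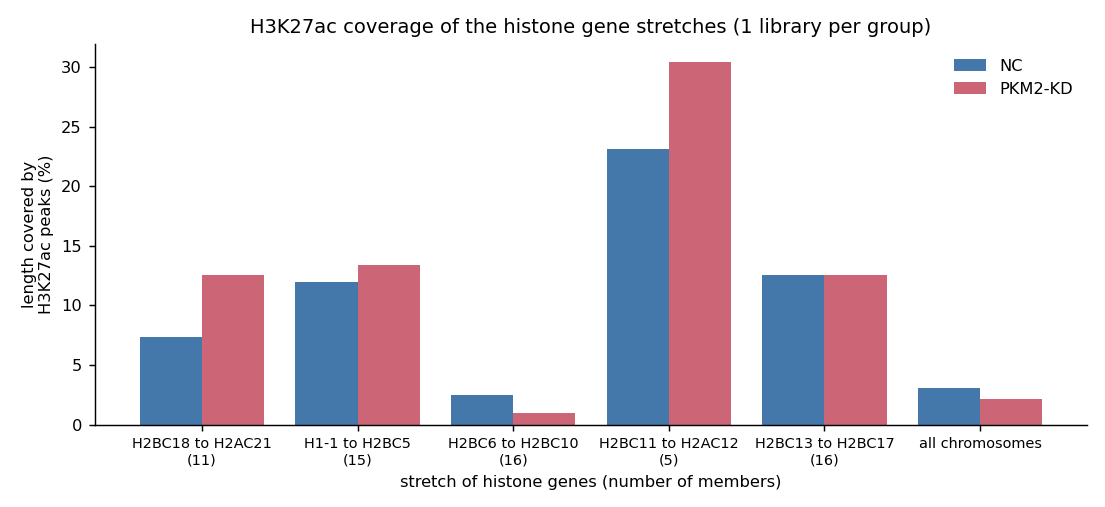
Length covered by H3K27ac peaks, in %, for the 4 large clusters (the largest divided into H1-1 to H2BC5 and H2BC6 to H2BC10, without H4C8) and for all chromosomes, in NC (blue) and PKM2-KD (red), with 1 library per group. The stretch from H2BC6 to H2BC10 holds 2.484% and 0.9438%, below all chromosomes, and the other stretches lie above them.

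Of the 70 members, 12 had no H3K27ac peak in either list (17.1%), near the 14.9% of all genes and below the 33.7% of genes of at most 2 kb. These were H1-1, H1-3, H1-5 and H1-6 (linker histones, H1-6 being the testis type), H2AC7, H2AC8 and H2AC16, H2BC7, H3C4, H3C8 and H3C12, and H4C4. Of them, 8 had no peak of any target, namely H1-1, H1-6, H4C4, H3C4, H2AC7, H2BC7, H2AC8 and H3C8, and 6 of these 8 lay in the stretch from H2BC6 to H2BC10. The share of all genes without a peak of any target was not counted. The other 4 each had a peak of NONO or H3T11ph. H1-3 had an H3T11ph peak in PKM2-KD of 65 fragments (fold 50.35), the second highest fold at any member in that list, and no other peak. H2AC16 and H1-5 shared a NONO-KD peak of 66 fragments (fold 52.4), and H3C12 had a NONO NC peak of 21 fragments (fold 8.86). H1-5 also had an H3T11ph NC peak, of 11 fragments (fold 8.75). Peaks of NONO or H3T11ph were thus also found at a few members without an H3K27ac peak.

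The small clusters held little signal apart from H4C16. H4C16, the H4 gene on the short arm of chromosome 12, had 1 H3K27ac peak in each list, covering 1708 bp in NC (95 fragments high) and 1527 bp in PKM2-KD (115 fragments high), and no NONO or H3T11ph peak. H1-7, a testis linker histone, and H2AC1 and H2BC1, the testis types of H2A and H2B, had peaks of 8 to 15 fragments and of the narrowest width in NC and none in PKM2-KD. H2AC25 and H2BC26 shared an H3K27ac peak 12 fragments high in NC and 5 fragments high in PKM2-KD, and a NONO-KD peak of 14 fragments.

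H3K27ac was present in both lists at 44 members (62.9%), against 57.5% of all genes, in NC only at 11 and in PKM2-KD only at 3. It was in neither at 12 (17.1%, against 14.9% of all genes). Of the members with a peak in NC, 80% also had one in PKM2-KD, against 73.8% of all genes with a peak in NC. Among all genes, 20.4% had a peak in NC alone and 7.26% in PKM2-KD alone, but this order turned with the form of the lists, to 9.78% and 16.9% with −log10 q of at least 5, 5.48% and 15.9% with peaks at least 2 times the narrowest width, and 9.53% and 19.1% with lists of equal length. The 11 members with a peak in NC only (15.7%) were H1-7, H2AC1, H2BC1, H3C6, H4C6, H4C7, H3C7, H2BC9, H2BC10, H3C11 and H4C13. All their NC peaks had the narrowest width of that list. No member had a peak in NC only once peaks had to be at least 2 times the narrowest width (5.48% of all genes). The same held once H3K27ac peaks had to be at least 20 fragments high (8.66% of all genes). The 3 members with a peak in PKM2-KD only were H2BC6 (6 fragments), H4C5 (15 fragments) and H4C9 (7 fragments). The tallest H3K27ac peak of a member with one in a single list was thus that of H4C6, at 19 fragments in NC.

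**Figure D3:**
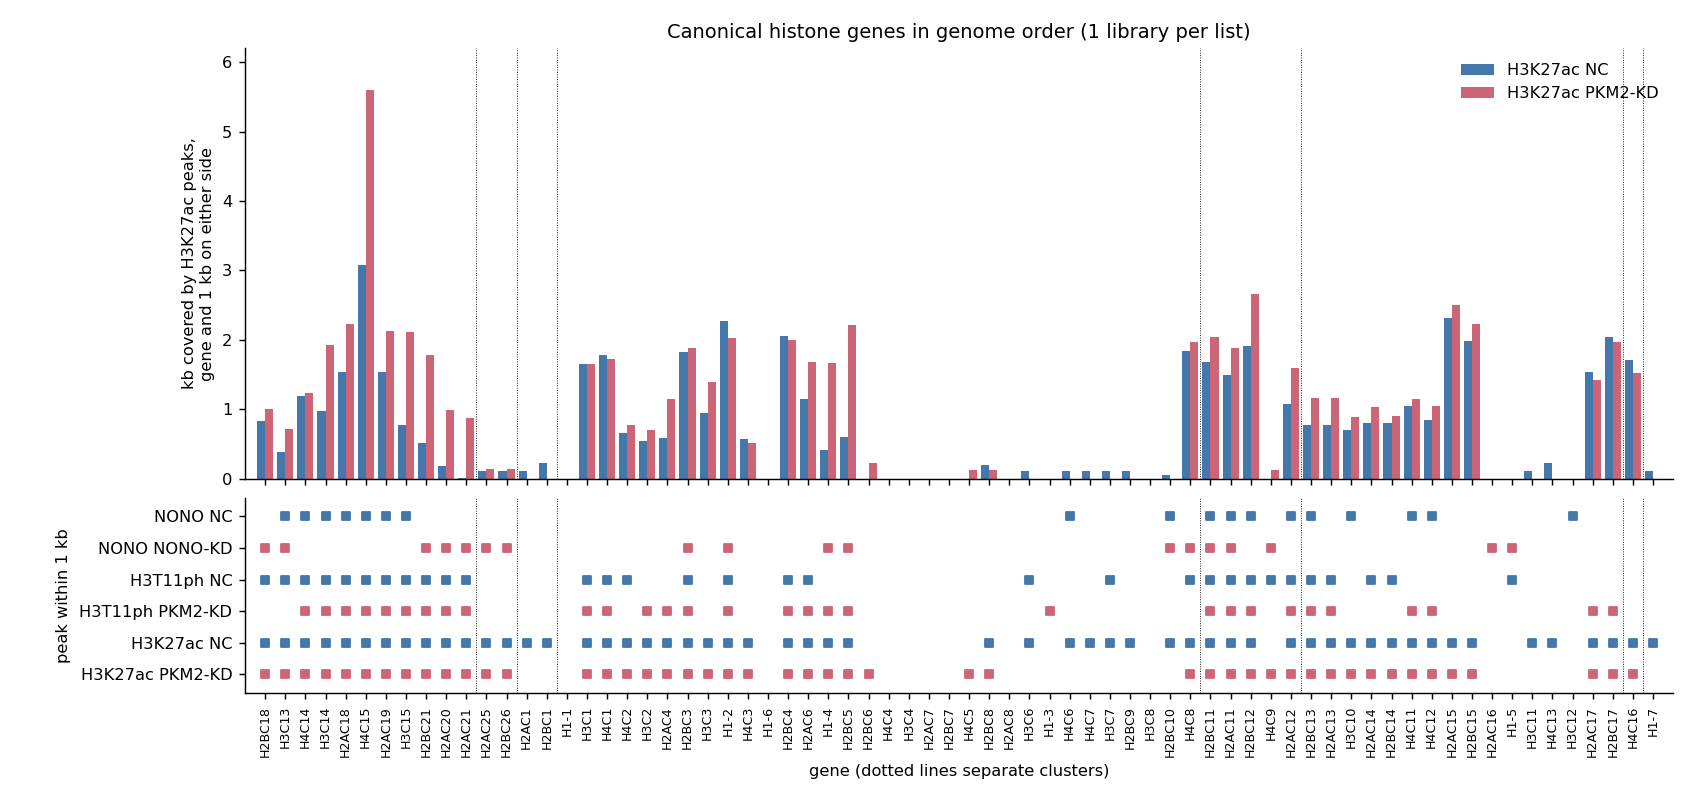
Top, kb of each gene with 1 kb on either side covered by H3K27ac peaks in NC (blue) and PKM2-KD (red), for the 70 members in genome order. Bottom, squares mark members with a peak within 1 kb in each of the 6 lists (NC lists blue, knockdown lists red). H4C15 reaches 3085 bp and 5598 bp, and the members from H2BC6 to H2BC10 hold little or no H3K27ac.

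Where H3K27ac was present in both lists, it was on balance taller in PKM2-KD. The tallest peak of the 44 members had a median height of 59.5 fragments in NC and 78.5 in PKM2-KD, against 24 and 28 over all genes with a peak in both lists. The median ratio of PKM2-KD to NC was 1.35 at the members and 1.11 over 11479 genes. The height was greater in PKM2-KD at 36 members, equal at 1 (H4C2, at different sites) and lower at 7. Over the 11479 genes it was greater in PKM2-KD at 6509, equal at 386 and lower at 4584, so most genes went the same way. It was at least 1.5 times higher at 16 members (36.4%), against 28% of genes, and at least 1.5 times lower at 2 (4.55%), against 17.7% of genes. The exact 95% interval of the ratio, which covers counting error only, lay above 1 at 16 members, below 1 at 2 (H2BC3 and H3C3, which shared their peak) and included 1 at 26. Heights of neighbours were often those of a shared peak. Over the 30 distinct pairs of peaks the median ratio was 1.25, with 10 at least 1.5 times higher and 1 at least 1.5 times lower. The tallest peak was taken in each list on its own, so the peaks of a pair can lie at different sites. At H4C15 it was chr1:149860789-149861987 in NC (66 fragments) and chr1:149841528-149843874 in PKM2-KD (127 fragments). A ratio thus describes a gene and not always a single peak.

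Of the 16 members at least 1.5 times higher, 8 lay in the cluster on chromosome 1. Its 11 members had a median ratio of 2. Outside it, the median ratio of the other 33 members was 1.25, and 8 (24.2%) were at least 1.5 times higher, a share below the 28% of all genes. Of these 33, 27 were still higher in PKM2-KD, against 6509 of 11479 genes. Of the same 33, 2 (6.06%) were at least 1.5 times lower, against 17.7% of genes. The heights on chromosome 1 included those of the copied genes. H3C15 had 59 fragments in NC and 125 in PKM2-KD (ratio 2.12, interval 1.54 to 2.94). H3C14 and H2AC18 had 62 and 127 (2.05, 1.5 to 2.82) at a shared peak, and H2AC19 70 and 125 (1.79, 1.32 to 2.43). The PKM2-KD peaks behind these values were wider than the NC peaks. The summit of the 125-fragment peak, 149850658, lay within 1 kb of H2AC19 but not of H3C15. That of the 127-fragment peak, 149843146, lay within 1 kb of H2AC18 but not of H3C14. H2BC21, H2AC20 and H2AC21, which shared a peak, went from 48 to 96 fragments (2, 1.4 to 2.89). H2BC18 and H3C13, at the other end of the cluster, had 37 and 28 (0.757, 0.446 to 1.27), at sites that did not overlap. H4C14 had 58 and 62 (1.07, 0.735 to 1.56), so the ratios differed within the cluster.

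Among the other members, the tallest H3K27ac peak of all stood at the promoter shared by H2BC11 and H2AC11, at 163 fragments in NC and 252 in PKM2-KD (ratio 1.55, 1.26 to 1.89). H2AC15 and H2BC15 went from 61 to 111 (1.82, 1.32 to 2.53), H4C8 from 41 to 79 (1.93, 1.31 to 2.88) and H1-4 from 29 to 51 (1.76, 1.09 to 2.88). H1-2 had 119 and 148 fragments (1.24, 0.97 to 1.6), and H3C1 with H4C1 104 and 134 (1.29, 0.99 to 1.68). H4C2 reached 116 in both lists, but at different sites. Where its peaks overlapped, the heights in NC and PKM2-KD were 64 and 116, 116 and 86, and 63 and 68. H2BC3 and H3C3 went from 121 to 89 (0.736, 0.553 to 0.975). With 1 library per condition, none of these ratios has a replicate check.

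**Figure D4:**
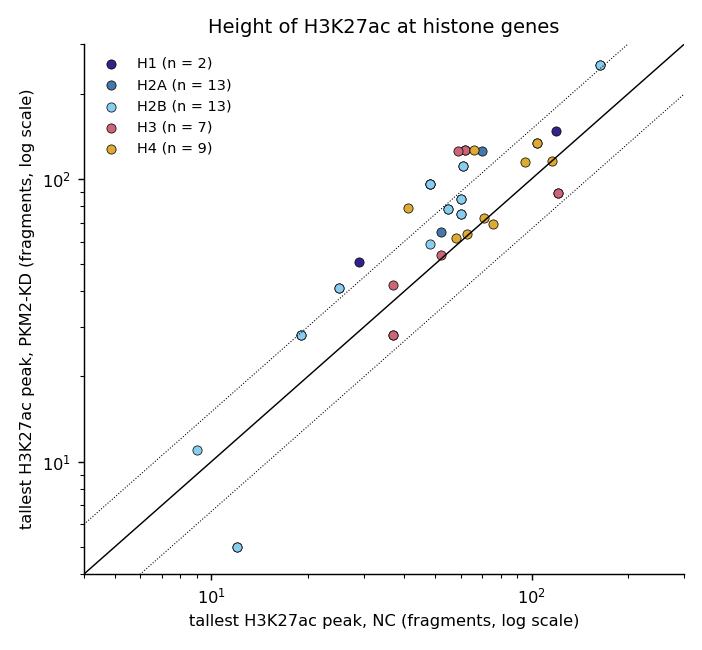
Height of the tallest H3K27ac peak within 1 kb in NC (x axis) and PKM2-KD (y axis), in fragments on log scales, for the 44 members with a peak in both lists, coloured by family. The tallest peak was taken in each list separately and can lie at different sites. Members sharing a peak fall on the same point, the solid line marks equal heights and the dotted lines a 1.5-fold difference. Of the 44, 36 lie above the solid line and 7 below it. Of all 11479 genes with a peak in both lists (not drawn), 6509 were higher in PKM2-KD and 4584 lower.

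The length of acetylated sequence was also greater in PKM2-KD at most members. The bases of each gene with 1 kb on either side that lay in H3K27ac peaks had a median of 554.5 in NC and 898.5 in PKM2-KD over the 70 members. Coverage was greater in PKM2-KD at 38 members (54.3%), against 35.2% of all genes, lower at 19 (27.1%), against 60.1% of all genes, and equal at 13, of which 12 had none. Genes of at most 2 kb were divided evenly, with more in PKM2-KD at 32.75% and less at 33.31%, and ribosomal protein genes (78.16%) and replacement histone genes (84.62%) had more in PKM2-KD more often than the members did. Without the cluster on chromosome 1 it was greater at 27 of 59 (45.8%). Of the 19 with less, 11 had only peaks of the narrowest width in NC. The most covered members in NC were H4C15 (3085 bp), H2AC15 (2321 bp) and H1-2 (2277 bp), and in PKM2-KD H4C15 (5598 bp), H2BC12 (2665 bp) and H2AC15 (2496 bp). The largest gains were at H4C15 (2513 bp), H2BC5 (from 602 to 2210 bp) and H3C15 (from 775 to 2118 bp), and the largest losses at H1-2 (from 2277 to 2028 bp), H2BC1 (from 224 to 0 bp) and H4C13 (from 224 to 0 bp). The gene model of H4C15 runs from 149844488 to 149861240 on chromosome 1 and contains H2AC19 and H3C15, so its coverage includes theirs. The models of H2BC12 (8566 bp) and H2BC5 (13229 bp) are also long beside the member median of 494.5 bp, so more sequence was counted for them. The NC and PKM2-KD lists of H3K27ac differ in form. Over all cluster spans, peaks covered 49253 bp in NC and 56951 bp in PKM2-KD as deposited. With peaks at least 2 times the narrowest width the lengths were 36372 and 50958 bp. With −log10 q of at least 5 they were 38001 and 51042 bp, and with lists of equal length 41237 and 56951 bp. Lengths per gene were not recomputed in this way, and what part of them follows from the form of the lists was not tested.

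An H3T11ph peak was present in both lists at 21 members, in NC only at 10, in PKM2-KD only at 9 and in neither at 30. Among all genes, 11.9% had a peak in NC alone and 11.4% in PKM2-KD alone, so the members' shares of 14.3% and 12.9% lay near the background. Of the members with a peak in NC, 67.7% also had one in PKM2-KD, against 33.4% of all genes with a peak in NC, 54.8% of such ribosomal protein genes and 57.1% of such genes for factors of histone gene expression, of which there were 7. The 21 were H4C14, H3C14, H2AC18, H4C15, H2AC19, H3C15, H2BC21, H2AC20 and H2AC21 on chromosome 1, H3C1, H4C1, H2BC3, H1-2, H2BC4 and H2AC6 in the largest cluster on chromosome 6, H2BC11, H2AC11, H2BC12 and H2AC12, and H2BC13 with H2AC13. All 11 members on chromosome 1 from H2BC18 to H2AC21 had a peak in NC and 9 did in PKM2-KD. The lists held the same genes more often than the same sites, since 10 of the 34 NC peaks at members overlapped a PKM2-KD peak (29.4%, against 5.75% of the whole list), which were 8 of the 28 PKM2-KD peaks (28.6%).

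The heights of H3T11ph at the 21 members did not move one way. The median ratio of PKM2-KD to NC was 1.2, against 1.06 over the 1190 genes with a peak in both lists, with 5 members at least 1.5 times higher (23.8%, against 33.7% of those genes) and 4 at least 1.5 times lower (19%, against 28.9%). Neighbours shared peaks, and over the 15 distinct pairs of peaks 3 were at least 1.5 times higher and 2 at least 1.5 times lower. The tallest peak was again taken in each list on its own, so these pairs too can join different sites. H2BC4 and H2AC6, which start back to back, shared a peak that went from 19 fragments (fold 5.58) in NC to 161 (fold 51.3) in PKM2-KD, the highest fold at any member in that list. H2BC21 had 31 and 95 fragments, whereas H2BC13 with H2AC13 had 17 and 4 at sites that did not overlap. Among peaks in 1 list only, H4C8 had the highest fold in NC (27.4, 121 fragments), followed by H4C9 (22.6, 30 fragments) and H3C6 (20.4, 27 fragments), and none of these had a peak in PKM2-KD. H1-4 and H2BC5 shared a peak of 108 fragments and H2AC17 and H2BC17 a peak of 115 fragments in PKM2-KD, and none of them had a peak in NC. Tall H3T11ph peaks were therefore found in either condition alone.

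Of the 32 members with a NONO peak, 28 had one in a single list (87.5%), close to the 87.9% of all genes with a NONO peak. A peak was present in both NONO lists at 4 members (5.71%, against 4.16% of all genes), only in NC at 14, only in NONO-KD at 14 and in neither at 38. Among all genes, 24.2% had a peak in NC alone and 5.89% in NONO-KD alone, while each of these classes held 20% of the members. All 17 NONO NC peaks at members had the narrowest width, 269 bp, as did nearly all of that list. The density of NONO NC peaks was 15.85 per 100 kb in the span from H2BC18 to H2AC21 on chromosome 1, 17.39 from H2BC11 to H2AC12 (3 peaks), 9.048 from H2BC13 to H2BC17 and 1.848 from H1-1 to H4C8, against 3.018 over all chromosomes. The NONO-KD densities of these spans were 2.796, 11.6 (2 peaks), 2.262 and 2.588, against 1.496. No H1 gene had a NONO peak in NC, and H1-2, H1-4 and H1-5 had one in NONO-KD.

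The 4 members with a NONO peak in both lists were H3C13, H2BC10, H2BC11 and H2AC11. H2BC10 had the highest fold of any member in each list, 92.7 in NC (175 fragments) and 82.1 in NONO-KD (104 fragments), but its peaks were at different sites, chr6:26272882-26273150 in NC and chr6:26273987-26274128 in NONO-KD. H3C13 likewise had separate peaks of 63 and 62 fragments. Only the peaks at the H2BC11 and H2AC11 promoter overlapped, at 122 fragments in NC and 99 in NONO-KD. Other high folds in NC were at H3C10 (68.7, 211 fragments) and H2BC13 (53.7, 101 fragments), neither of which had a NONO-KD peak. Because the NONO lists were made in different forms, a peak in NC only is not by itself a difference between the cells. Nor are the heights of the NONO lists on a common scale.

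Fold and height ranked the members differently. Fold is height over the background that the caller took for the same place, with 1 added to each. In H3K27ac NC, height and background were multiplied by 0.5209 before 1 was added. At the H2BC11 and H2AC11 promoter printed above, the background was 59.4 fragments in NONO NC, 18.9 in NONO-KD and 19.4 in H3T11ph NC. In H3T11ph PKM2-KD it was 8.78 fragments, and under the tallest H3K27ac peak it was 59.5 in NC and 50.7 in PKM2-KD. The commonest background of the 6 lists lay between 0.2783 and 0.8993 fragments. The folds of those peaks were accordingly low, 2.04, 5.02, 4.26, 10.6, 2.68 and 4.89. The promoter was thus high in the peaks and in the background of all 6 lists. At H2BC10, by contrast, the NONO background was 0.899 in NC and 0.278 in NONO-KD, the commonest values of those lists.

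In NC, 12 members (17.1%) had peaks of all 3 targets, against 6.6% of all genes. They were H3C13, H4C14, H3C14, H2AC18, H4C15, H2AC19 and H3C15 on chromosome 1 and H2BC11, H2AC11, H2BC12, H2AC12 and H2BC13 on chromosome 6. H3T11ph peaks were found mostly at acetylated members. Among the 44 members with H3K27ac in both lists, 27 (61.4%) had an H3T11ph peak in NC and 29 (65.9%) in PKM2-KD, against 23.9% and 24% of the 11479 genes of the same class. Among the 12 members without H3K27ac, 1 had an H3T11ph peak in each list (8.33%, against 7.34% and 6.7% of all genes without H3K27ac). Among the 11 with H3K27ac in NC alone, 2 (18.2%, against 8.86%) had one in NC and none (against 6.87%) in PKM2-KD. At the level of peaks, 28 of 34 H3T11ph NC peaks at members overlapped an H3K27ac NC peak (82.4%, against 43.3% of the H3T11ph peaks within 1 kb of any gene end and 19.7% of the whole list), which were 21 of 76 H3K27ac peaks (27.6%). In PKM2-KD, 24 of 28 did (85.7%, against 56.8% near any gene end and 24.2% of the whole list), which were 20 of 66 H3K27ac peaks (30.3%). For NONO NC the count was 11 of 17 (64.7%, against 33.3% near any gene end and 16.8% of the whole list), or 13 of 76 H3K27ac peaks (17.1%).

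Summits of H3T11ph and NONO lay within 250 bp of a member's start more often than those of H3K27ac. For H3T11ph, 16 of 33 summits in NC and 16 of 28 in PKM2-KD did, for NONO 7 of 16 in NC and 6 of 12 in NONO-KD, and for H3K27ac 18 of 68 and 17 of 61. H3K27ac summits lay at a median of 266.5 bp into the gene in NC and 275 bp in PKM2-KD. In 100 bp steps around the starts of the 65 members with a start in the table, H3T11ph coverage reached 15.38% of members in NC at 200 bp before the start and 16.92% in PKM2-KD at 100 bp before it, against 4.769% and 4.579% of all genes at their highest. H3K27ac coverage reached 38.46% in NC and 58.46% in PKM2-KD, the latter 200 bp into the gene, against 26.9% and 34.46% of all genes at their highest, which was at the start.

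**Figure D5:**
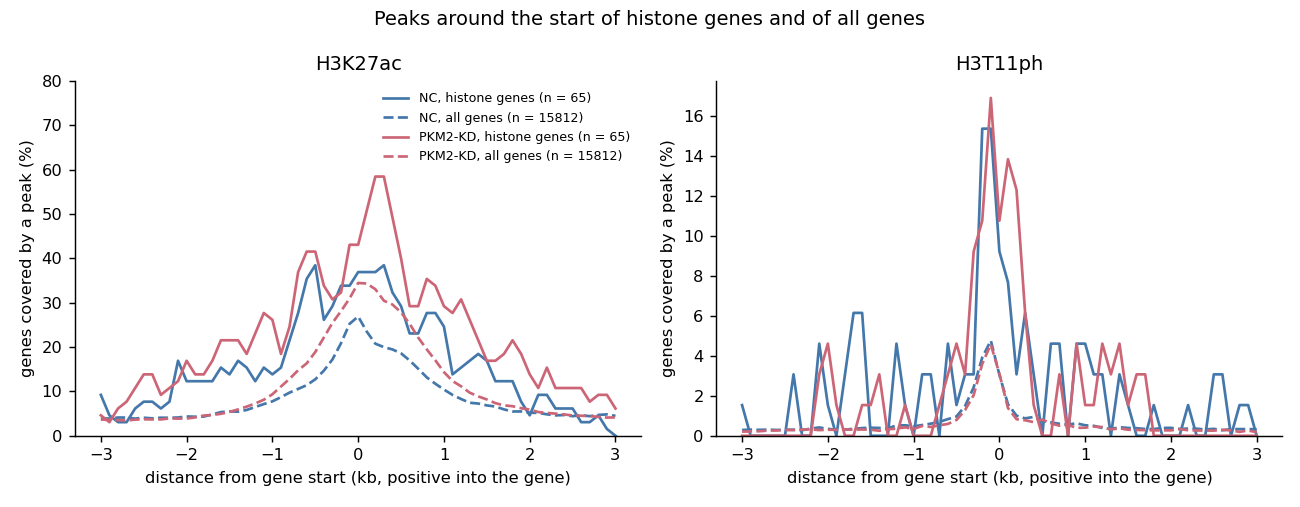
Share of genes covered by a peak, in %, by distance from the gene start in kb (positive into the gene), for H3K27ac (left) and H3T11ph (right). Solid lines are the 65 histone genes and dashed lines 15812 genes, in NC (blue) and PKM2-KD (red). H3T11ph over the histone genes is highest within 0.2 kb before the start, at 15.38% and 16.92%, and H3K27ac in PKM2-KD is highest at 0.2 kb into the gene, at 58.46%.

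Among the 65 members with a promoter sequence, 11 pairs of H2A and H2B genes started back to back. There were 194 to 248 bp between their starts, and their genes were in most cases marked together. The neighbours H2BC12 and H2AC12 were not counted as a pair, because H2AC12 had no promoter sequence from which to take its start. Both H2BC12 and H2AC12 had a NONO peak in NC, and H3T11ph and H3K27ac peaks in NC and PKM2-KD. Both genes had an H3K27ac peak in 9 of the 11 pairs in NC and in 8 in PKM2-KD. Both had an H3T11ph peak in 5 pairs in each condition, and no pair had H3T11ph at 1 gene alone. Both had a NONO peak in 1 pair in NC (H2BC11 with H2AC11) and in 3 in NONO-KD, those being this pair, H2BC21 with H2AC20 and H2AC25 with H2BC26, while H2BC13 with H2AC13 had NONO at H2BC13 alone in NC. H2BC8 with H2AC8 was the only pair with H3K27ac at 1 gene alone, at H2BC8 in both lists, with 9 fragments in NC and 11 in PKM2-KD. H2AC7 with H2BC7 had no peak in any list. With starts so close, the window of either gene holds the shared region, so like calls are partly set by the counting.

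Other gene lists are given for scale. Of 13 replacement histone genes, which encode variants made outside S phase such as H2AZ1 and H3-3A, 11 had H3K27ac in each list and 2 had H3T11ph in each list (15.4%, near the background). Of 15 genes for factors of histone gene expression, such as NPAT and the stem-loop binding protein gene SLBP, 15 had H3K27ac in NC and 14 in PKM2-KD, and 7 and 6 had H3T11ph (46.7% and 40%). Of 87 cytosolic ribosomal protein genes, 31 (35.6%) had H3T11ph in NC and 37 (42.5%) in PKM2-KD, so a share above the background of all genes was not particular to the histone genes. The median H3K27ac height ratio of PKM2-KD to NC was 1.27 at 82 ribosomal protein genes, 1.72 at 10 replacement histone genes and 1.63 at 14 factor genes, against 1.35 at the canonical histone genes.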

How the data were processed

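CUT&Tag peak lists of 6 MDA-MB-231 libraries were used, 1 per group. Per the labels, the submitters' processing notes name hg38, FastQC 0.11.9, cutadapt 1.18, SAMtools 1.3.1, MACS2 2.1.1.20160309 and DESeq2; the aligner, calling options, duplicate handling and any control are not given in the sources used here. The authors deposited, for each peak, a fold, −log10 p, −log10 q and a score equal to −log10 q multiplied by 10 without its decimals. The fold is the ratio of height to local background with 1 added to each, in H3K27ac NC after both were multiplied by the pileup factor given below. No list was filtered further. Genes and promoters were those of RefSeq on GRCh38.p14. A peak height was accepted as a whole number of fragments when fold and height together gave back the deposited −log10 p to within 0.002. In H3K27ac NC this needed a pileup factor of 0.5209, and 10.02% of its peaks near genes matched more than 1 height, of which the closest was used. Such more than 1 match touched 2 of the 44 tallest member peaks. The intervals cover counting error only. The genes, lists and comparisons were chosen with earlier results of these data known. Genes named are those on chromosome 12 and in the smallest clusters, those without H3K27ac, the 3 most covered, 3 largest gains and 3 largest losses of H3K27ac, the 3 highest folds per NONO and H3T11ph list, those in both lists of these targets, and those with all 3 targets in NC; other members named with heights were chosen after their values were seen. The height recovery and the window counts were tested on simulated data. Python 3.11.15, pandas 2.3.3, scipy 1.17.1 and matplotlib 3.10.9 were used.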

Additional observations from a re-analysis of the deposited data

How the results depend on the processing

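No paired analysis was possible because 1 library was deposited for every group and the titles carry no replicate numbers. The limits lie in how the lists were made. Requiring peaks at least 2 times the narrowest width left 0% of members with a NONO peak in either list (all genes 1.19% and 0.851%), 12.9% with H3T11ph NC (3.59%), 10% with H3T11ph PKM2-KD (3.55%) and 52.9% with H3K27ac NC (39.5%). Under that rule the NC only count was 0 for NONO (all genes 1.1%), 4 for H3T11ph (2.74%) and 0 for H3K27ac (5.48%). The knockdown only count was 0 (0.756%), 2 (2.7%) and 5 (15.9%). With −log10 q of at least 5, H3K27ac NC fell to 65.7% (48.2%), with 6 members in NC only (all genes 9.78%). With lists cut to equal length, NONO NC fell to 7.14% (15.8%), with 4 members in NC only (all genes 13.5%), and 6 members had H3K27ac in NC only (9.53%). A window of 250 bp gave shares of 14.3% for NONO-KD (4.23%), 30% for H3T11ph NC (10.1%) and 61.4% for H3K27ac NC (51.2%). It left 8 members with NONO after knockdown only (all genes 3.12%) and 5 with H3T11ph in NC only (7.14%). For H3K27ac it left 6 in NC only (14.1%) and 7 after knockdown only (12%). A window of 2.5 kb raised NONO NC to 37.1% (44.6%) and H3K27ac NC to 88.6% (91.2%). The knockdown only counts were then 9 for NONO (all genes 8.39%) and 1 for H3K27ac (3.36%). With a height of at least 20 fragments, chosen after the data were seen, H3K27ac NC held 55.7% of members (38.4% of all genes). Of the members, 0 had a peak in NC only (8.66% of all genes). With an overlap of at least 50% of the shorter peak, 7 NONO NC peaks at members overlapped H3K27ac NC and 3 overlapped H3T11ph NC, where 11 and 6 did at 1 bp. The cause of these changes was not tested beyond the construction of each setting. A further 63 recomputed values, 8 of them under settings added later, were classed as unmoved. Some of them still changed by as much as values given above. With the 2.5 kb window H3T11ph NC went from 44.3% to 54.3% (all genes 26.8%). The share of members with H3T11ph was above that of all genes in both lists under all 7 alternatives run. The ratio of the shares was lowest with the 2.5 kb window, 47.1% against 25.5% in PKM2-KD.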
